A study of Mus musculus with 15 samples.

Results

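A 205-kb window of mouse chromosome 19 (mm9, chr19:38920000-39125000), labelled as the locus of the cytochrome P450 genes Cyp2c55, Cyp2c65 and Cyp2c66, was described across 12 peak lists of intestinal epithelium. Its members are all peaks that overlap the window, 64 of 778471 peaks in the 12 lists. The window was chosen from these data, because the highest-scoring H3K4me2 peak of enterocytes that goblet cells lack lies in it, so the contrast of enterocytes with goblet cells is given here as a description with no test.

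Cyp2c genes encode haem enzymes of the endoplasmic reticulum that oxidise fatty acids, drugs and other foreign compounds. They lie in tandem arrays that arose by duplication, and several members are expressed in the gut, where absorptive enterocytes meet dietary compounds first. H3K4me2 marks promoters and enhancers, whether active or poised, H3K27ac marks those that are active, and DNase I hypersensitive sites (DHS) mark open chromatin. ATOH1 is the transcription factor required for the secretory cells of the intestine.

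All material came from C57BL/6 mice. H3K4me2 was mapped in Lgr5+ stem cells sorted for GFP from Lgr5-eGFP-Cre mice (ISC, 1 library), in enterocyte progenitors from Atoh1-/- crypts (Ent-Pro, 2 libraries), in secretory progenitors from crypts with Rbpj deleted (Sec-Pro replicate 1) or from mice given the Notch inhibitor dibenzazepine (Sec-Pro replicate 2), in enterocytes from Atoh1-/- villi (ENT, 1 library) and in goblet cells from Rbpj-/- villi (GOB, 1 library). H3K27ac and DHS were each mapped in 1 Ent-Pro and 1 Sec-Pro library, and ATOH1, through a FLAG antibody, in 1 Sec-Pro library; which Sec-Pro preparation these used is not stated. Lineage cannot be told apart from genotype or drug in any secretory-absorptive contrast, no sort is stated for populations other than ISC, and the labels give neither the driver nor the time of either deletion. In such bulk libraries, fewer cells with a mark and less of the mark per cell cannot be told apart.

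The label of the window was checked first, and it held only in part. The available gene table is of build GRCm38.p6, in which the genes run in the order Noc3l, Tbc1d12, Hells, Cyp2c52-ps, Cyp2c55, Gm3875, Cyp2c65, Cyp2c66. At their GRCm38.p6 positions, 1 or 2 of 55 gene starts within 2000 kb of the window lay under an H3K4me2 peak, depending on the list. When the starts were slid along the chromosome, with all Cyp2c genes left out, 23 to 33 of the 55 lay under a peak, and the slide that gave the most over the 7 lists together was 74.2 kb. At that slide, the starts of Hells and Cyp2c55 fell inside the window, that of Tbc1d12 to its left, and those of Cyp2c65 and Cyp2c66 to its right. The slide served for this check alone. No coordinates were converted, no peak is assigned to a gene, and the window is called by its position below. Because of this check, the 205 kb to its right was described as well, a choice made after the data were seen.

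The 250 bases upstream of the 3 gene starts are shown because they tell how alike the copies are, which bears on where short reads can be placed. They are from RefSeq, build GRCm38.p6, plus strand, at chr19:39006769-39007018 for Cyp2c55, chr19:39060756-39061005 for Cyp2c65 and chr19:39113648-39113897 for Cyp2c66. These positions cannot be set beside the mm9 peaks as they stand. The Cyp2c55 numbers fall within those of the mm9 region chr19:39004273-39007626 described below, but the builds differ, and no link between them is meant. Capitals mark matches, on either strand, to letters bound by intestinal factors: CAAAGTCCA for HNF4-type factors, AGATAA for the GATA family and CAATAAA for CDX-type factors.
Cyp2c55: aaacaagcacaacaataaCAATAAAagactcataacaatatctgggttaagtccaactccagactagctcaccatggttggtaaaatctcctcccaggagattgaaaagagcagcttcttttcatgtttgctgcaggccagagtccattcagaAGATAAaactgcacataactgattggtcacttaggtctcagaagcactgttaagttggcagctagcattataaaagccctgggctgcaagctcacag
Cyp2c65: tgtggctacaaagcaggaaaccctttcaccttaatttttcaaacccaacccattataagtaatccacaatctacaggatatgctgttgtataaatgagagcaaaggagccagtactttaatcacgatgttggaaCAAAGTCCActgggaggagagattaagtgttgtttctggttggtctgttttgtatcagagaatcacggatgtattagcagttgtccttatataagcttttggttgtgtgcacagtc
Cyp2c66: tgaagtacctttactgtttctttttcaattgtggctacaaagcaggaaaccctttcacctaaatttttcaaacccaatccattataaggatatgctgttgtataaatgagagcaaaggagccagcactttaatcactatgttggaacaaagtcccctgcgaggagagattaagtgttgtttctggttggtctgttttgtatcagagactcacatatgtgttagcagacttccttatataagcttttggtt
In a global alignment, the Cyp2c65 and Cyp2c66 sequences shared 208 bases, with 13 mismatches and 58 gap positions, so 94.1% of aligned bases were identical. Cyp2c55 matched 72.2% of aligned bases of Cyp2c65 and 73.4% of Cyp2c66, in alignments with 68 and 86 gap positions. The Cyp2c55 sequence held 1 GATA match and 1 CDX-type match, letters found in 9.99% and 4.20% of 32851 RefSeq promoters of the same length. Cyp2c65 held 1 HNF4-type match, found in 0.384% of promoters. An E-box of the letters CAGCTG, found in 13.0% of promoters, was in none of the 3 sequences. These matches are descriptions of letters, not sites of binding.

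Over the whole window the ENT list covered the most H3K4me2 and the GOB list the least, and the place of ENT above the progenitors rested on 1 stretch. The ENT list held 13 peaks that covered 6841 bp, and the GOB list held 1 peak of 1674 bp. ISC had 4 peaks over 2884 bp. Ent-Pro replicates 1 and 2 had 6 peaks each, over 5366 and 4531 bp. Sec-Pro replicates 1 and 2 had 5 and 8 peaks, over 4667 and 5712 bp. The progenitor lists thus lay between the 2 mature lists, and ISC between the progenitors and GOB. Without the stretch of the peak the window was chosen for (chr19:39079039-39084510), ENT covered 3144 bp and GOB 1674 bp, so ENT exceeded GOB by 1470 bp and lay below all 4 progenitor lists, with 4808 and 3999 bp in Ent-Pro and 3668 and 4361 bp in Sec-Pro. Since the lists differ in length, tiles of the same size were used as a yardstick. Over 8383 tiles of the genome with any H3K4me2 peak, the median covered length was 4381 bp in ENT, 3865 bp in GOB, 2497 bp in ISC, 5594 and 4147 bp in Ent-Pro, and 4115 and 5930 bp in Sec-Pro. ENT exceeded GOB by 5167 bp in the window, and by at least as much in 5.17% of the tiles, a share that can support nothing here because the window was chosen on this contrast.

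**Figure D1:**
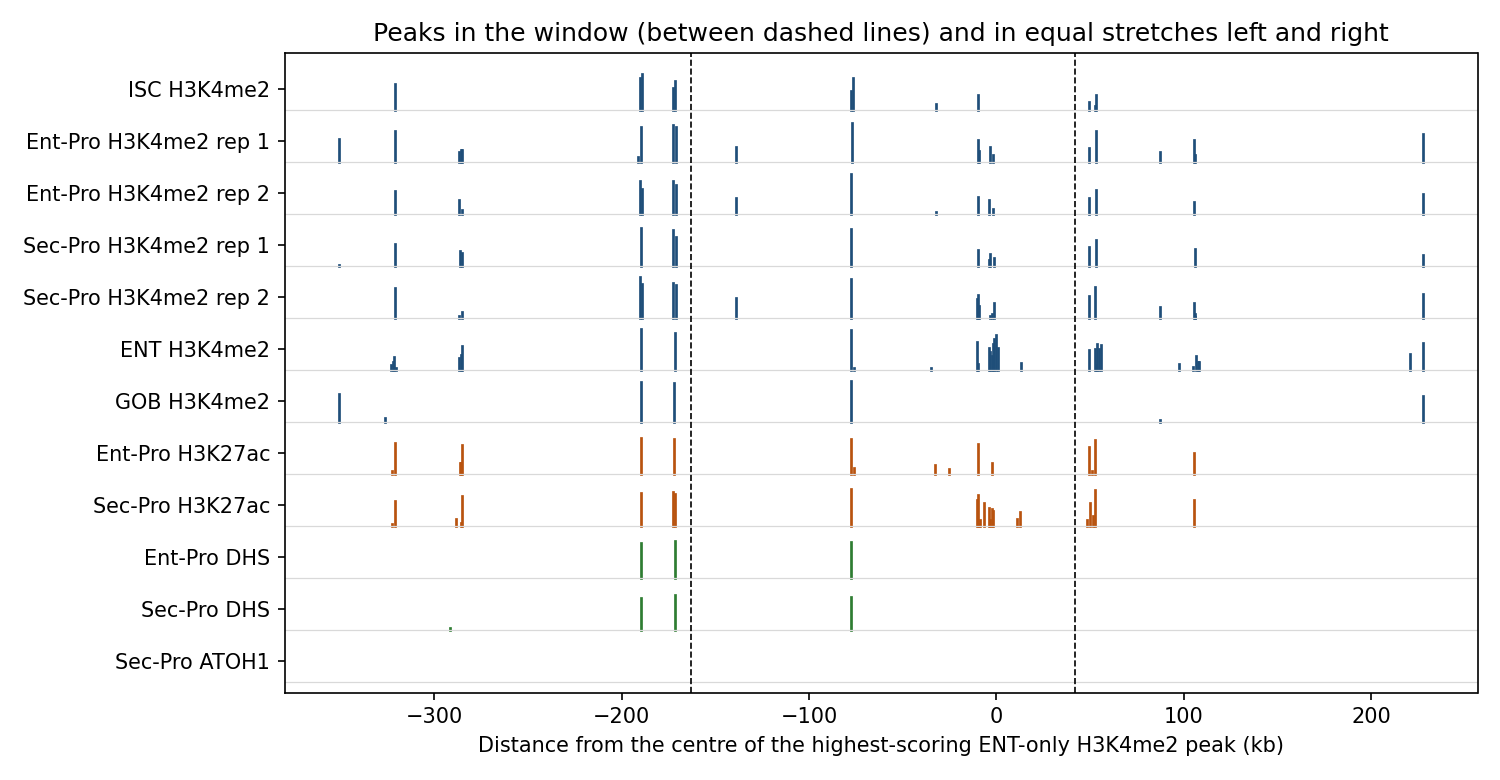
Peaks of the 12 lists in the window, between dashed lines, and in the equal stretches to its left and right, against distance in kb from the centre of the highest-scoring ENT-only H3K4me2 peak; each line is a peak, and its height is the percentile of its score within its list. The GOB row has 1 peak in the window and the ENT row has 13.

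**Figure D2:**
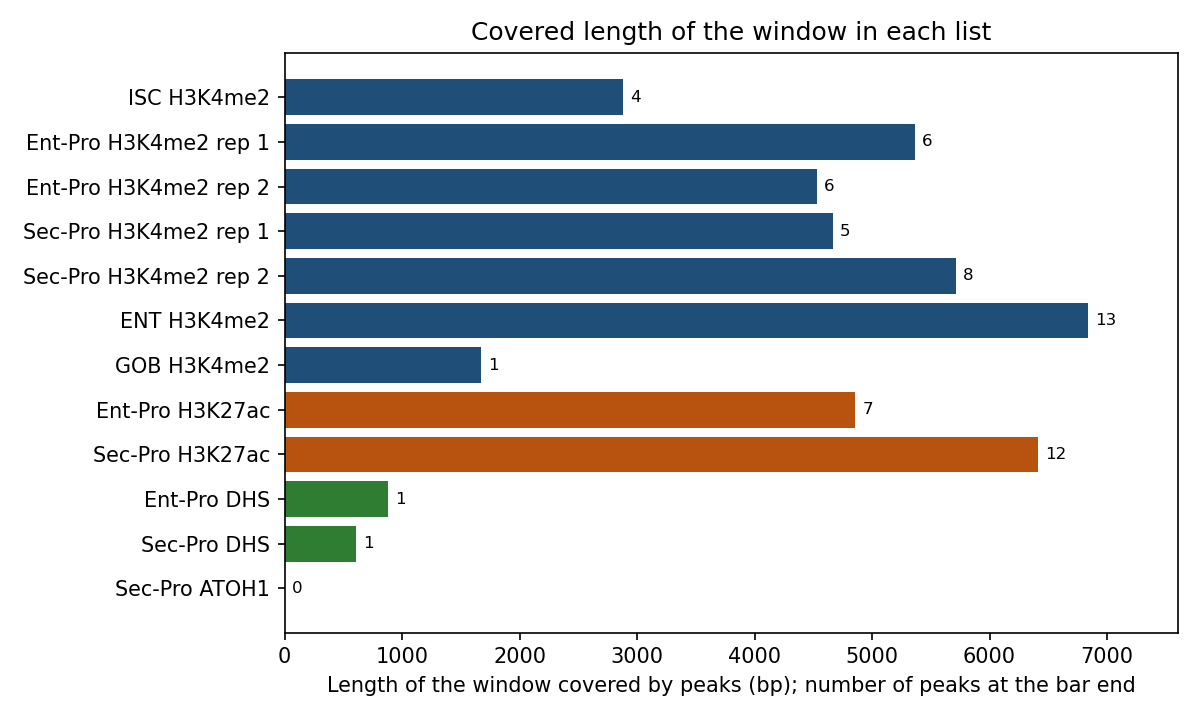
Length of the window, in bp, covered by the peaks of each list, with the number of peaks at the end of each bar. Among the H3K4me2 lists ENT is highest at 6841 bp and GOB lowest at 1674 bp; ATOH1 has no peak.

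When overlapping H3K4me2 peaks were merged, the window held 14 regions. Of these, 9 were marked in ENT and not in GOB, 1 in both, 0 in GOB and not in ENT, and 4 in neither. By peak, 12 of 13 ENT peaks had no GOB peak, against 29.2% of all ENT peaks, and 11 had none within 1 kb, against 14.7%. The 1 GOB peak overlapped an ENT peak; 24.8% of all GOB peaks had none. With peaks within 1 kb joined, the 14 regions formed 7 stretches. Of these, 4 were marked in ENT and not in GOB, 1 in both and 2 in neither. A single stretch held 7 of the 13 ENT peaks, so the peaks are not separate cases. No share over the genome is given for the counts of regions and stretches. Nothing is read from any of these counts, because the window was chosen on this contrast. The nearest members lay 23938 bp inside the left edge and 28675 bp inside the right edge. The nearest peaks left out lay 6842 bp beyond the left edge and 6683 bp beyond the right edge, and both belonged to Sec-Pro lists.

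The region marked in every H3K4me2 list spanned 3354 bp at chr19:39004273-39007626. Its top peak stood in the upper 50% of each list. The percentile of the top score, which is the share of the list's peaks with a lower score, was 77.0 in ISC, whose second and wider peak there (1332 bp) stood at 45.2, and 94.5 and 97.3 in Ent-Pro replicates 1 and 2, 88.9 and 93.7 in Sec-Pro replicates 1 and 2, 97.8 in ENT and 97.9 in GOB. It held the only DHS of the window, with 880 bp at percentile 86.4 in Ent-Pro and 605 bp at percentile 79.5 in Sec-Pro. H3K27ac covered 2167 bp of it in Ent-Pro and 1898 bp in Sec-Pro. H3K4me2 covered less of it in ENT (2146 bp), GOB (1674 bp) and ISC (2330 bp) than in the progenitors. Ent-Pro replicates 1 and 2 covered 3349 and 2539 bp, and Sec-Pro replicates 1 and 2 covered 2775 and 3038 bp. The median peak width of the whole list was also lower in ENT, GOB and ISC than in any progenitor H3K4me2 list. Nothing particular to this region is therefore read from the narrower mark. Near the right end of the region, 660 bp beyond the GOB peak, ENT had a weak peak of 154 bp at percentile 4.12.

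**Figure D3:**
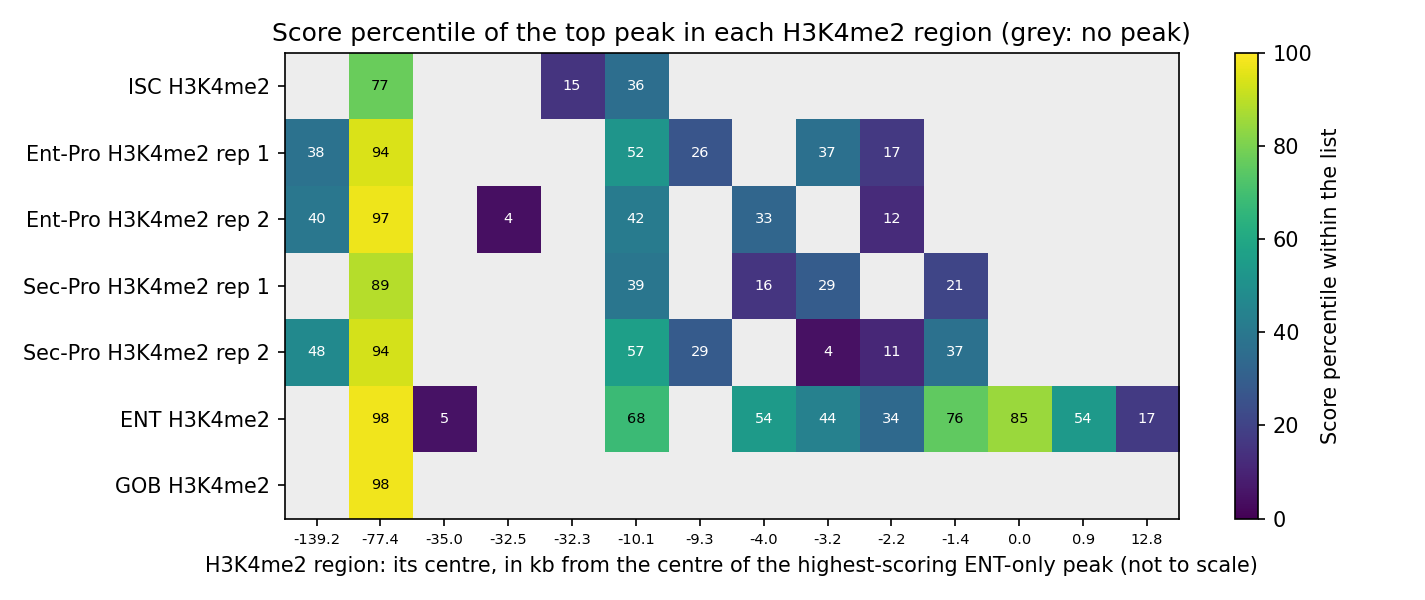
Percentile of the top score within its list for each of the 14 H3K4me2 regions (columns, labelled by the distance of their centre in kb from that of the highest-scoring ENT-only peak) in the 7 H3K4me2 lists (rows); grey cells have no peak. GOB is coloured in 1 column, and ENT in 10.

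The largest difference in covered length between the mature lists lay in a stretch of 5472 bp, chr19:39079039-39084510. ENT had 7 peaks there that covered 3697 bp, and GOB had none. The highest of them, chr19:39082781-39083872, was 1092 bp wide with a score of 80.7, which is the value the window was chosen on. It ranked first of 25823 ENT-only peaks, and the next highest score in that set was 79.6. Among all 88489 ENT peaks it ranked 13279, at percentile 85.0 by score and 78.1 by width. ENT-only peaks are weak as a rule, with a median percentile of 25.2 and a median width of 226 bp, against 438 bp for all ENT peaks. Within the window, 6 of the 12 ENT-only peaks reached the upper 50% of the ENT list, as did 12.8% of all ENT-only peaks, a comparison from which nothing is read because the window was chosen on such a peak.

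None of the 11 other lists had a peak under the highest ENT-only peak, which is true of 8.24% of all ENT peaks and 28.3% of ENT-only peaks. Other lists came close to it from the left side. Sec-Pro peaks ended 854 and 569 bp away in replicates 1 and 2, and Ent-Pro peaks 1418 and 1389 bp away. Ent-Pro H3K27ac ended 1598 bp away and Sec-Pro H3K27ac 1020 bp away. The nearest ISC peak lay 9052 bp away. The nearest GOB peak, at 76441 bp, was the one in the shared region.

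The other ENT peaks of this stretch lay mostly to the left of the highest one and had progenitor peaks under them. The ENT peak at chr19:39081997-39082303 (percentile 75.7) overlapped Sec-Pro replicate 2 alone. That at chr19:39081457-39081930 (percentile 63.8) overlapped both Sec-Pro lists and Sec-Pro H3K27ac, and no Ent-Pro list. The peak at chr19:39080755-39081162 (percentile 34.1) was met by both Ent-Pro lists, by Sec-Pro replicate 2 and by H3K27ac of both progenitors. At chr19:39079873-39080301 (percentile 44.1) Ent-Pro replicate 1, both Sec-Pro lists and H3K27ac of both progenitors were found. The leftmost, chr19:39079039-39079537 (percentile 54.3), was met by Ent-Pro replicate 2, Sec-Pro replicate 1 and Sec-Pro H3K27ac. To the right of the highest peak, chr19:39084023-39084510 (percentile 53.6) had no peak in another list. ENT percentiles here ran between 34.1 and 85.0. The top progenitor percentiles in the stretch were 37.0 and 33.1 in Ent-Pro replicates 1 and 2, and 29.0 and 37.5 in Sec-Pro replicates 1 and 2, so no progenitor peak there reached the upper 50% of its list.

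**Figure D4:**
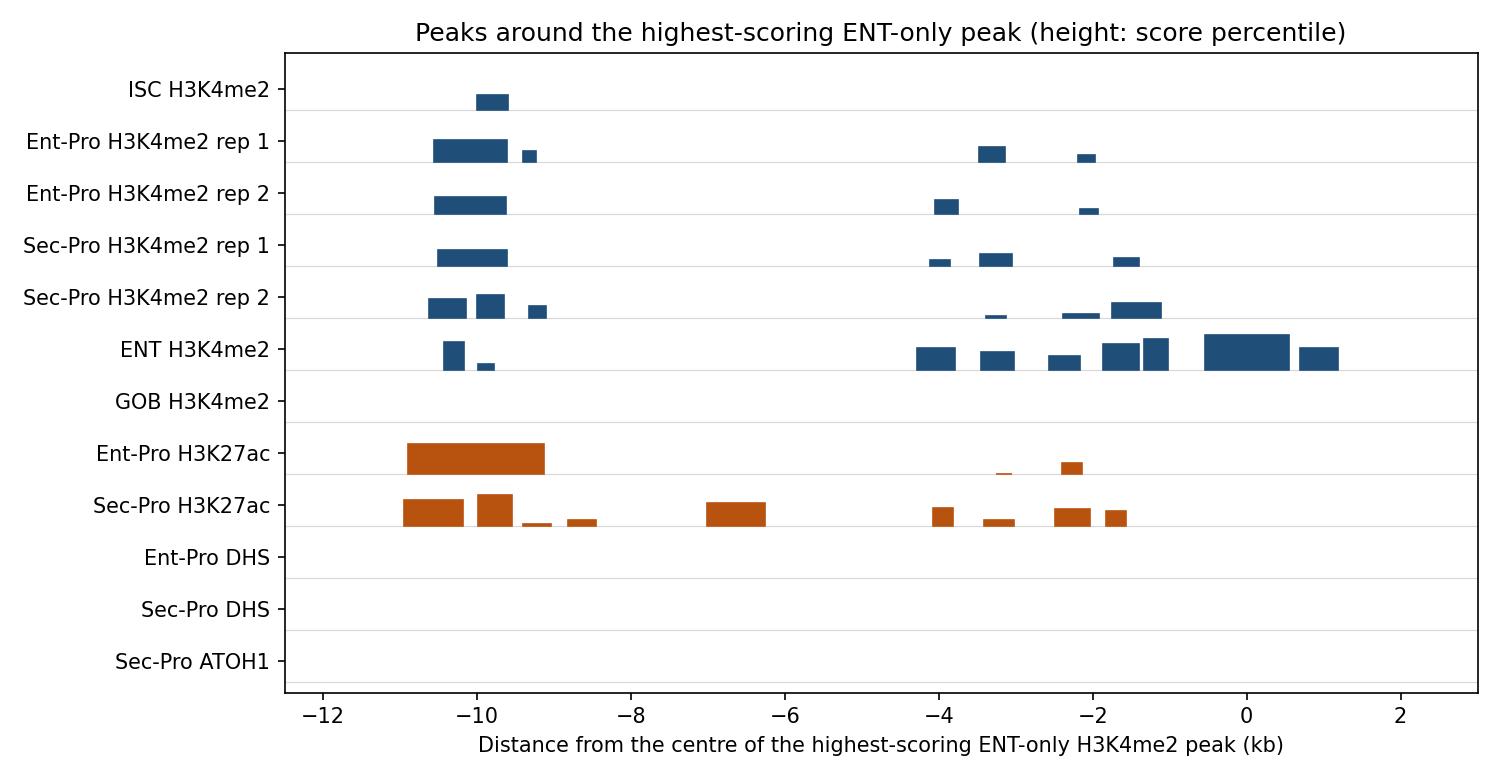
Peaks in the 12 lists from 12.5 kb left to 3 kb right of the centre of the highest-scoring ENT-only peak; box width is the peak's width, and box height the percentile of its score within its list. Within this range ENT boxes extend to the right of the last progenitor boxes, and the GOB, DHS and ATOH1 rows are empty.

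The progenitors were the only populations with 2 H3K4me2 libraries each, and the choice of the window did not use them. Over the whole window Ent-Pro averaged 4948.5 ± 590.4 bp and Sec-Pro 5189.5 ± 738.9 bp (SD, n = 2 each). The difference of -241 bp was smaller than either SD, with an exact two-sided permutation p = 0.667, and 0.333 is the smallest p that 4 libraries allow. Between lists with a shortest peak of 146 bp (Ent-Pro replicate 1 and Sec-Pro replicate 2) the difference was -346 bp, and between those with 200 bp it was -136 bp. The sign turned with the upper 50% of each list (335.5 bp), with lists of equal length (111.5 bp), and without Ent-Pro replicate 2 (176.5 bp) or Sec-Pro replicate 2 (281.5 bp). Without the stretch of the highest ENT-only peak it was 389 bp.

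In the stretch of the highest ENT-only peak, singled out after the data were seen, the Ent-Pro lists covered less than the Sec-Pro lists. Ent-Pro replicates 1 and 2 covered 558 and 532 bp, and Sec-Pro replicates 1 and 2 covered 999 and 1351 bp. The difference was -630 bp (exact two-sided permutation p = 0.333, the smallest that 4 libraries allow). The groups did not overlap, and the same was found in 6.32% of 65392 tiles of this length with a progenitor peak, while both Ent-Pro lists covered more than both Sec-Pro lists in 8.53%. Within the 146-bp lists the difference was -793 bp and within the 200-bp lists -467 bp. H3K27ac went the same way, with 471 bp in Ent-Pro and 1392 bp in Sec-Pro, 1 library each. At equal list length the H3K4me2 difference was -385 bp and the H3K27ac difference -921 bp. All these peaks lay in the lower 50% of their lists by score. ENT, which comes from the same genotype as Ent-Pro, covered 3697 bp of the stretch and GOB 0 bp.

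**Figure D5:**
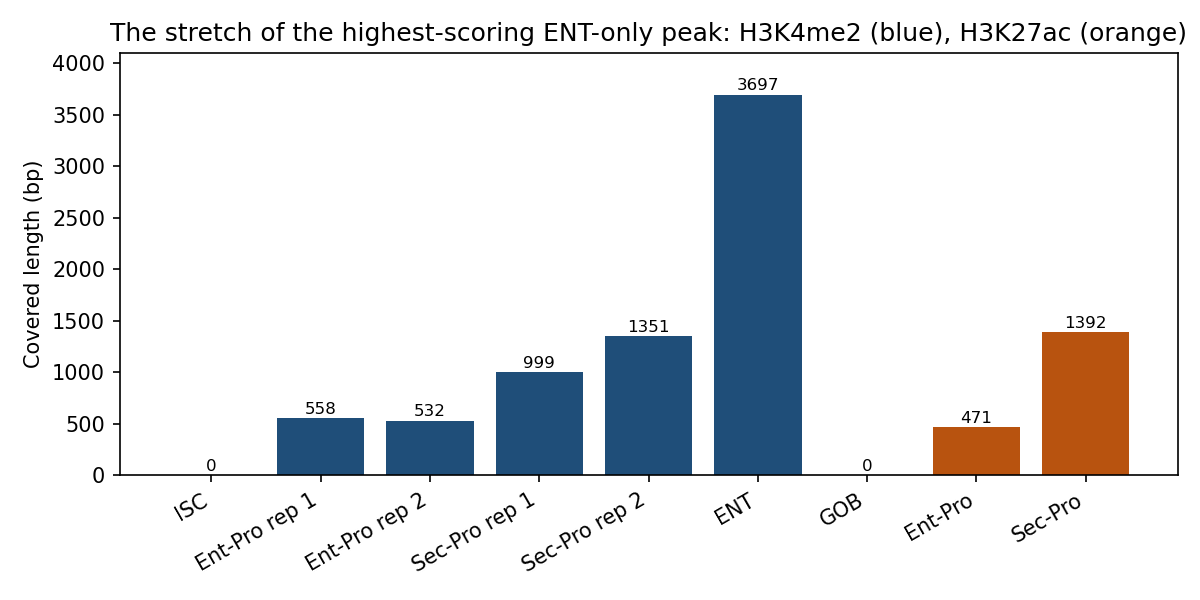
Length in bp of the 5472-bp stretch around the highest-scoring ENT-only peak covered by H3K4me2 (blue) and H3K27ac (orange) peaks, 1 bar per library. ENT reaches 3697 bp, the 2 Sec-Pro H3K4me2 bars (999 and 1351 bp) stand above the 2 Ent-Pro bars (558 and 532 bp), and ISC and GOB are at 0.

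Of the 14 H3K4me2 regions, 9 carried a peak in any progenitor list and 2 in all 4 progenitor lists. For these counts no share over the genome is given, so nothing is read from them. No region was marked in both Ent-Pro lists and neither Sec-Pro list, a pattern of 1.11% of all progenitor regions. The opposite pattern, which 0.654% of all progenitor regions had, was found once, at chr19:39081457-39082303. Both shares are of 91528 regions merged from the 4 progenitor lists alone, whereas the 14 were merged from all 7 H3K4me2 lists. Of the single peaks, 0 of 6 in Ent-Pro replicate 1 lacked a peak in Sec-Pro replicate 2 (15.9% over the whole list) and 1 of 8 in Sec-Pro replicate 2 lacked one in Ent-Pro replicate 1 (18.4%). Between the 200-bp lists, 3 of 6 Ent-Pro peaks had no Sec-Pro peak (16.4%) and 2 of 5 Sec-Pro peaks no Ent-Pro peak (13.7%).

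A further stretch, chr19:39072707-39074221, was marked in ISC, in all progenitor lists and in ENT, and not in GOB. H3K4me2 covered 408 bp of it in ISC, 1126 and 921 bp in Ent-Pro, 893 and 1050 bp in Sec-Pro, 481 bp in ENT and 0 bp in GOB. Although ENT covered less than any progenitor list, its top percentile of 68.3 was higher than that of ISC (36.2), Ent-Pro (52.3 and 41.6) and Sec-Pro (39.1 and 56.5). The stretch also carried the strongest H3K27ac of the window outside the shared region, with 1488 bp at percentile 72.5 in Ent-Pro and 1185 bp at percentile 73.8 in Sec-Pro. No DHS was listed in it. This was the only stretch of the window besides the shared region with an ISC peak above percentile 15.1.

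The remaining regions were small and weak. A region of 376 bp at chr19:38943938-38944313, on the left side of the window, was marked in both Ent-Pro lists (percentiles 37.5 and 39.6) and in Sec-Pro replicate 2 (47.6), and in neither mature list. ENT alone marked chr19:39048201-39048413 (percentile 4.98). ENT H3K4me2 at chr19:39096022-39096325 (percentile 17.1) met a Sec-Pro H3K27ac peak at percentile 33.6 and nothing in Ent-Pro. Close by each other, a 231-bp peak of Ent-Pro replicate 2 (percentile 4.24) and a 146-bp peak of ISC (percentile 15.1) lay at chr19:39050683-39051125.

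H3K27ac peaks were fewer and covered less in Ent-Pro than in Sec-Pro. Ent-Pro had 7 peaks over 4857 bp and Sec-Pro 12 peaks over 6410 bp, a difference of -1553 bp with 1 library each and no test. The whole Sec-Pro list also had more peaks (74483 against 68764), of lower median width (489 against 555 bp), though it covered less (59.7 against 64.0 Mb). Part of the count is a matter of splitting. At chr19:39072380-39074284 Ent-Pro had 1 peak over 1765 bp and Sec-Pro 3 peaks over 1575 bp. Of the Ent-Pro peaks 3 of 7 had no Sec-Pro peak, against 22.6% of the whole list, and of the Sec-Pro peaks 6 of 12 had no Ent-Pro peak, against 20.2%. Of the peaks found in 1 progenitor, the Sec-Pro peak at chr19:39076313-39077064 (752 bp, percentile 56.9) was the 1 in the upper 50% of its list. In the upper 50% of each list the difference was -141 bp. Merged, the 2 lists gave 13 regions, of which 8 carried ENT H3K4me2, against 65.9% of all 78965 such regions, and 1 carried GOB H3K4me2, against 59.1%. Another 4 had no H3K4me2 in any list, against 17.9%, and the Sec-Pro peak just named was 1 of them. The window was chosen on the ENT-GOB contrast, so nothing is read from the first pair of counts.

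Outside the shared region no DHS was listed in the window. Each progenitor had 1 DHS, and the 2 overlapped, whereas 29.8% of all Ent-Pro DHS had no Sec-Pro DHS and 14.6% of all Sec-Pro DHS had no Ent-Pro DHS. Neither list had a DHS in the stretches that ENT marked and GOB did not. The nearest one to the highest ENT-only peak ended 76707 bp away in Ent-Pro and 76965 bp away in Sec-Pro, both in the shared region. Beyond the right edge the next DHS began 1140011 bp away in Ent-Pro and 1139994 bp away in Sec-Pro. No ATOH1 peak lay in the window, in the stretch to its left or in that to its right, and the nearest ended 242358 bp left of the window. The ATOH1 list, with 15240 peaks, was the shortest of all, and the DHS lists were the next shortest, with 38595 peaks in Ent-Pro and 31980 in Sec-Pro. The share of tiles without such a peak is not given, so nothing particular to the window is read from their absence. DHS were mapped in progenitors alone, so accessibility in ENT and GOB was not measured.

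In the 205 kb to the right of the window ENT again covered more than GOB, but not more than every progenitor list. ENT held 13 peaks there that covered 3831 bp, and GOB 2 peaks that covered 727 bp. Ent-Pro replicates 1 and 2 covered 3898 and 2933 bp, Sec-Pro replicates 1 and 2 covered 3267 and 3476 bp, and ISC 700 bp. The median tile held 4381 bp in ENT and 3865 bp in GOB. Of the ENT peaks to the right, 12 of 13 had no GOB peak. In the 205 kb to the left ENT held 9 peaks over 6588 bp and GOB 4 peaks over 4309 bp, and 7 of 9 ENT peaks had no GOB peak. The whole-list share is the 29.2% given above, and neighbouring stretches were seen before they were counted.

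To the right the peaks fell into groups. ENT peaks ran from chr19:39135481-39135993 (percentile 50.3) to chr19:39138974-39139681 (percentile 61.5), and GOB had none within this group. Both Ent-Pro lists had a peak over its left end, of 1419 bp at percentile 75.2 in replicate 1 and 1372 bp at percentile 59.0 in replicate 2. Sec-Pro matched them with 1381 bp at percentile 63.5 in replicate 1 and 1326 bp at percentile 73.8 in replicate 2. Ent-Pro H3K27ac stood there at percentile 82.5 and Sec-Pro H3K27ac at 86.6, percentiles above those that progenitor peaks reached in the stretch of the highest ENT-only peak. The ENT peaks at chr19:39137125-39137380 (percentile 63.2), chr19:39138093-39138555 (percentile 50.4) and chr19:39138974-39139681 lay to the right of the progenitor peaks of this group. The progenitor peaks next to the highest ENT-only peak of the window likewise lay to its left, although Sec-Pro H3K27ac was listed again farther right, at chr19:39094294-39094493 and chr19:39096038-39096265.

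A weaker group began near chr19:39188388-39188608, where ENT had a peak at percentile 8.01. H3K27ac covered this place in Ent-Pro (505 bp, percentile 52.0) and in Sec-Pro (828 bp, percentile 62.5), and all 4 progenitor lists carried H3K4me2, with top percentiles of 53.9 and 29.8 in Ent-Pro and 42.4 and 37.5 in Sec-Pro. Further ENT peaks followed to the right, the highest at percentile 34.1, and GOB had none. The GOB peaks of the right-hand stretch lay elsewhere. One at chr19:39170352-39170756 (percentile 6.36) met Ent-Pro replicate 1 and Sec-Pro replicate 2. The other, chr19:39310930-39311251 (percentile 62.1), met ENT at percentile 65.9 and all 4 progenitor lists.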

How the data were processed

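The 12 peak lists of 15 samples were used; 3 samples of input DNA were left out. The submitters' processing notes name CASAVA 1.7, Bowtie 0.12.7, MACS2 and the build mm9, without parameters or read numbers. Depth is therefore unknown, and a region without a listed peak may still carry the mark. The authors deposited 1 list per library with a score for each peak; its name is not given, its lowest value lay between 2.00 and 2.72, and it was used only to rank peaks within a list. It is the authors' own value.

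Positions are 1-based. Peaks counted as shared from 1 bp of overlap, and regions are merged overlapping peaks. Named were the regions with the highest percentiles, those marked in 1 mature list, and every H3K27ac, DHS and ATOH1 peak (in long lists the highest, the rest as counts). The members, lists and motifs were chosen with earlier results of these data known. The ENT-GOB contrast had no test; the progenitors had an exact permutation test over 4 libraries. Planned tests at marker and other Cyp2c gene starts need an mm9 annotation and were not run, so the labelled cell types were not checked against markers. Nothing says whether libraries of a group came from separate animals. Python 3.11.15, NumPy 2.4.6, pandas 2.3.3, Biopython 1.88 and matplotlib 3.10.9 were used. Overlap counts were tested on part of a deposited list, with peaks removed from a copy, and on constructed intervals. Alternatives were the upper 50% by score, equal list length, other overlaps and window edges, and leaving out libraries.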

Additional observations from a re-analysis of the deposited data

How the results depend on the processing

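The ENT minus GOB difference kept its sign in every alternative run, from which nothing is read because the window was chosen on this contrast. It was 5167 bp with all peaks, with lists of equal length and with peaks counted by their centre, 3443 bp in the upper 50% by score, and 7612 bp with the window widened by 50 kb on each side. Without the highest ENT-only peak it was 4075 bp, and without its stretch 1470 bp (both added after seeing the data). ENT-only peaks numbered 12, 12 at 50% overlap, 11 without a GOB peak within 1 kb and 6 in the upper 50% by score; GOB-only peaks numbered 0 throughout. The 14 regions became 7 with peaks within 1 kb joined.

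Over the window, Ent-Pro minus Sec-Pro H3K4me2 was -241 bp and turned to 335.5 bp in the upper 50%, 111.5 bp at equal list length, 61.5 bp in the widened window and 389 bp without the stretch of the highest ENT-only peak (added after seeing the data); without 1 replicate it ran from -763.5 to 281.5 bp. The cause was not tested. In the stretch of the highest ENT-only peak the -630 bp ran from -806 to -454 bp without 1 replicate. The difference was 0 in the upper 50%, since every progenitor H3K4me2 peak there stood in the lower 50% of its list. It thus rests on low-scoring peaks alone. H3K27ac of that stretch was likewise 0 in the upper 50%. Over the window, H3K27ac moved from -1553 to -141 bp in the upper 50%, -1189 bp at equal list length and -1910 bp when widened, and DHS from 275 to 303 bp when widened. The highest ENT-only peak stood at percentile 85.0 by score, 78.1 by width and 99.996 among ENT-only peaks. No paired analysis was possible because only the Ent-Pro libraries carry replicate numbers in the labels.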
